A study of Homo sapiens with 6 samples.

Results

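The genes described are 46 DNA repair and checkpoint genes, taken by name from the textbook machineries of homologous recombination, DNA end resection, Fanconi anaemia crosslink repair, mismatch and base excision repair, and the replication checkpoint. They are 46 of the 26286 genes in the deposited tables, and all 46 had enough reads to be among the 14839 genes tested. RNA was sequenced from HT-1080 cells, a human fibrosarcoma line, after 48 h with 2 µM palbociclib, with 500 nM pimasertib, or with the DMSO vehicle alone. Each treatment had 2 libraries. Palbociclib inhibits CDK4 and CDK6, the kinases that release cells from G1 into S phase, and pimasertib inhibits MEK1 and MEK2, the kinases that activate ERK. All libraries come from 1 cell line in culture, and the labels do not say whether replicates came from separate cultures. The p-values therefore reflect the spread of these libraries alone, and that spread may be technical.

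Homologous recombination repairs a double-strand break by copying the sister chromatid, so it works mainly in S and G2 phase. Nucleases first cut back the broken ends, BRCA1, PALB2 and BRCA2 then act on the exposed strand so that it can pair with the intact copy, and helicases take apart the joined molecules afterwards. The Fanconi anaemia pathway unhooks crosslinks between the strands: a core complex attaches ubiquitin to FANCD2 and FANCI, which then bring in nucleases. ATM, acting on CHEK2, and ATR, acting on CHEK1, signal damage and stalled forks to the cell cycle. Many of these genes are transcribed as cells enter S phase, under E2F factors that the retinoblastoma protein holds in check.

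Library totals lay between 13607490 and 17500655 counts. Levels are given as CPM, the counts divided by the library total, after TMM scaling of that total and on the usual CPM scale, and a count of 3 in a library corresponded to 0.168 to 0.220 CPM. Mesenchymal genes were abundant (VIM, 512 to 1191 CPM over the 6 libraries), although THY1 was at or below 0.304 CPM, and the summed levels of epithelial, leukocyte and endothelial marker lists did not exceed 5.04, 1.04 and 2.07 CPM in any library. The proliferation gene MKI67 averaged 168 CPM with palbociclib and 223 CPM with pimasertib, against 994 CPM with DMSO. In RNA from whole cultures, fewer cells in S phase and less of a transcript per cell cannot be told apart, and this applies to every value below.

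Promoters of members on which the comparison turned are shown first, to give the sequence context of genes that fell with both drugs, of one that did not pass with either, and of one on which the drugs differed. Each is 300 bases, from 250 before to 50 after the transcription start that RefSeq lists on GRCh38.p14, in the direction of transcription. EXO1, FANCA and XRCC2 had the largest mean change over both drugs among the members that fell with both and held an E2F-type motif. ATR was 1 of the 2 members with the smallest mean change among those that passed with neither. BRIP1 was chosen after its values were seen. Capitals mark the E2F-type motif, TTTCCCGC, TTTCGCGC, TTTGCCGC or TTTGGCGC on either strand, in EXO1, FANCA and XRCC2. In BRIP1 they mark the CCAAT box, CCAAT on either strand, and ATR holds neither. The windows are chr1:241847954-241848253 (plus strand) for EXO1, chr16:89816598-89816897 (minus) for FANCA, chr7:152676092-152676391 (minus) for XRCC2, chr3:142578684-142578983 (minus) for ATR and chr17:61863479-61863778 (minus) for BRIP1.
EXO1: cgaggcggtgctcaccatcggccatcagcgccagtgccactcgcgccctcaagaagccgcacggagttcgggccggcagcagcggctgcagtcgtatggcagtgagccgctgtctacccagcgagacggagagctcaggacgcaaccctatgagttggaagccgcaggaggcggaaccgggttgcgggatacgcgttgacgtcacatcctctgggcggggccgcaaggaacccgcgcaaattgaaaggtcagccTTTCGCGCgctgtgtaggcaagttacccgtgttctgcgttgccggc
FANCA: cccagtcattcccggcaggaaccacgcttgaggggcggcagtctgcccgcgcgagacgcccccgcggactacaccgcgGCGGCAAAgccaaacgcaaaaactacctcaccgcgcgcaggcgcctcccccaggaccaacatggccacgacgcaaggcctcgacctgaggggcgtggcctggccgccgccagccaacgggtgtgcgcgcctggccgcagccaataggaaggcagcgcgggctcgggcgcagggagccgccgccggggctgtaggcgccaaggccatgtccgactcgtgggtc
XRCC2: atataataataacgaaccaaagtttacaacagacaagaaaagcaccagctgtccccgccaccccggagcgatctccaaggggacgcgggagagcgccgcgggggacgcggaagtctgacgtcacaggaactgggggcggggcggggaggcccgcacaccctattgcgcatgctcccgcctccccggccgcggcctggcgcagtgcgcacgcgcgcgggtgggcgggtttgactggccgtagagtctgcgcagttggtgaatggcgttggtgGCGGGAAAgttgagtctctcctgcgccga
ATR: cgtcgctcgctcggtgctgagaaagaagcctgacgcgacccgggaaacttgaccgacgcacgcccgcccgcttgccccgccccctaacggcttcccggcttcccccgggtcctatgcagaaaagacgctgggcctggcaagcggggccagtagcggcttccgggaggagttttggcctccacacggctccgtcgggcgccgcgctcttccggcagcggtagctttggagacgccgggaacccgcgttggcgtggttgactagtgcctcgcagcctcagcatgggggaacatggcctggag
BRIP1: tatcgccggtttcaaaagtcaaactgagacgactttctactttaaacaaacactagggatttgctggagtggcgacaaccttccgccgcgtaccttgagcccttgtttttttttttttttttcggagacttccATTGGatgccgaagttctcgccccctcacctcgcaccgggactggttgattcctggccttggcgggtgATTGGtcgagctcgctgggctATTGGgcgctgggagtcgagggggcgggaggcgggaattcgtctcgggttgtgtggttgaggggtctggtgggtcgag

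The E2F-type motif began 4 bases after the start in EXO1 and 21 bases after it in XRCC2, and 172 bases before it in FANCA. BRIP1 held 3 CCAAT boxes and 1 CHR element, the letters TTTGAA or TTCGAA on either strand. Promoter windows were found for 41 of the 46 members, and RAD54B, WRN, RMI2, DNA2 and FANCI had none. An E2F-type motif stood in a window of 11 of these 41 members (26.8%), against 6.64% of the 9671 tested genes with a window and 3.99% of all 27305 genes with one. It stood in 8 of the 27 members that passed with either drug, and in 3 of the 14 that passed with neither. A CCAAT box stood in 53.7% of members against 43.4% of tested genes and 39.7% of all genes, and a CHR element in 17.1% against 15.7% and 19.5%. No E2F-type motif contains the letters of the CCAAT box or the CHR element. A match describes letters in these windows and is not a measured binding site.

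The members were low to moderate transcripts in vehicle-treated cells. On the authors' FPKM scale, which divides by gene length and so allows genes to be compared, the median member stood at 3.24 with palbociclib, 3.73 with pimasertib and 7.86 with DMSO. MSH6, a mismatch recognition subunit, had the highest mean in DMSO, 49.8 FPKM. UNG, the uracil DNA glycosylase, TOPBP1, an activator of ATR, and UBE2T, the ubiquitin-conjugating enzyme of the Fanconi pathway, followed at 26.7, 24.5 and 20.6 FPKM. The recombination gene RAD51B was lowest at 1.27 FPKM. Summed over all members, levels were 1160 and 995 CPM in the palbociclib libraries and 1087 and 999 CPM in the pimasertib libraries, against 2104 and 1692 CPM in the DMSO libraries, so that the drug libraries did not overlap the DMSO libraries.

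With palbociclib, 22 of the 46 members were lower than with DMSO and 0 were higher at an adjusted p below 0.05 in edgeR's quasi-likelihood test. Over all tested genes 2.44% were lower and 1.11% higher. The median log2 fold change of the members was -1.16, against 0.005 over all tested genes, and members ranged from -2.53 to 0.48. In 37 members both palbociclib libraries lay below both DMSO libraries, as they did for 23.3% of all tested genes. At an unadjusted p below 0.05, 32 members were lower and 1, ATM, was higher, where 9.58% of all tested genes were lower and 8.4% higher. DESeq2 called 26 members lower and 0 higher, against 3.55% and 2.39% of all tested genes.

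With pimasertib, 28 members were lower than with DMSO and 0 were higher. Here the background was much larger, with 11.7% of all tested genes lower and 11.1% higher. The median log2 fold change of the members was -1.01, against 0.005 over all tested genes, and members ranged from -1.88 to 0.45. Both pimasertib libraries lay below both DMSO libraries in 36 members, as in 32.6% of all tested genes. At an unadjusted p below 0.05, 32 were lower and 0 higher, where 18.7% of all tested genes were lower and 17.8% higher. DESeq2 called 28 lower and 0 higher, against 12.2% and 12.3% of all tested genes. Some of these calls were lost without either pimasertib library or either DMSO library, and the most were lost without pimasertib replicate 2. Such a fit leaves a group with a single library. The number of all genes called also varied over the fits that left out a library. The comparisons of the drugs share the DMSO libraries, so their values stand side by side here and their likeness is not a separate result.

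**Figure D1:**
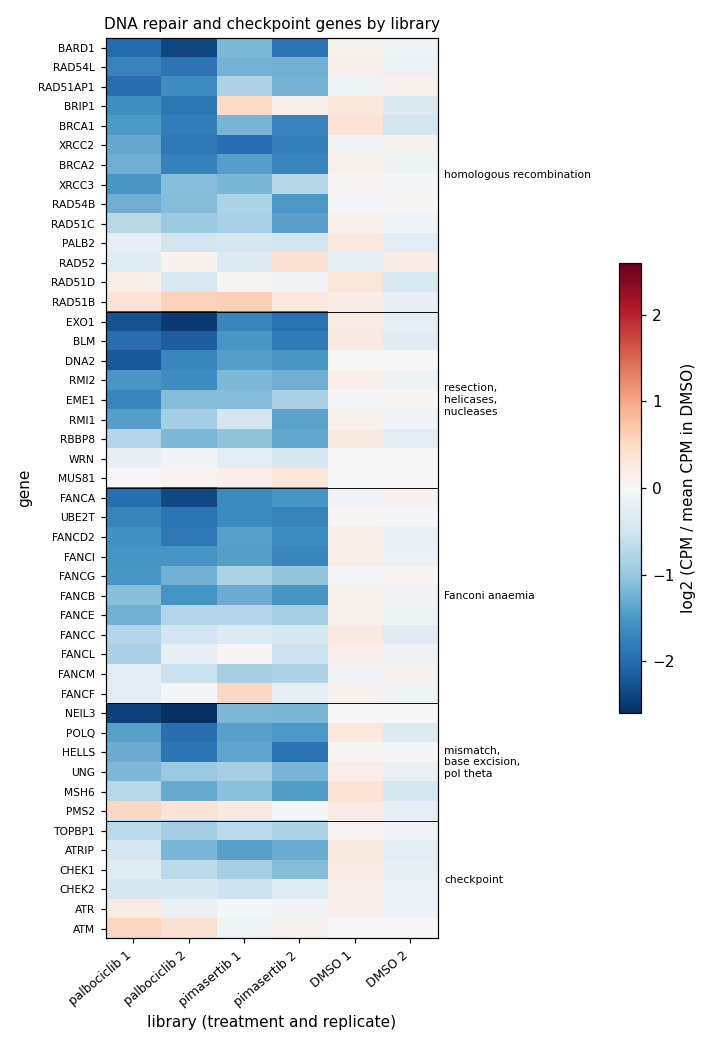
Level of each of the 46 genes (rows, by role) in each of the 6 libraries (columns) as the log2 of its CPM over its mean CPM in DMSO, with blue for lower and red for higher. The palbociclib and pimasertib columns are blue for most recombination, resection and Fanconi genes, while rows such as ATM, ATR, RAD52 and MUS81 are pale.

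Of the 14 homologous recombination genes, 8 fell with palbociclib and 8 with pimasertib. The background differed between the drugs, with 2.44% of all tested genes lower with palbociclib and 11.7% with pimasertib. The median log2 fold change of the 14 was -1.40 with palbociclib and -1.05 with pimasertib. BRCA1, the ubiquitin ligase that promotes recombination, lies on chromosome 17 from 41196312 to 41322290 on GRCh37. It had 26.0 and 20.9 CPM with palbociclib, 31.7 and 21.8 CPM with pimasertib, and 93.7 and 52.0 CPM with DMSO. All drug libraries were below both DMSO libraries, although the DMSO libraries differed widely. The log2 fold change was -1.63 with palbociclib (SE 0.30, adjusted p = 0.0149) and -1.44 with pimasertib (SE 0.30, adjusted p = 0.00752). BARD1 is the obligate partner that BRCA1 needs for its ligase activity. It had 5.35 and 4.14 CPM with palbociclib, 9.51 and 5.76 CPM with pimasertib, and 22.8 and 19.8 CPM with DMSO, again without overlap. Its log2 fold change of -2.17 with palbociclib (SE 0.31, adjusted p = 0.00378) was the largest fall among the recombination genes, and with pimasertib it was -1.48 (SE 0.30, adjusted p = 0.00650).

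BRCA2, a mediator of strand exchange, spans 32889611 to 32973805 on chromosome 13. It had 24.6 and 17.6 CPM with palbociclib, 22.2 and 18.2 CPM with pimasertib, and 64.5 and 54.5 CPM with DMSO. The drug libraries lay close together and well below DMSO, at log2 fold changes of -1.50 with palbociclib (SE 0.23, adjusted p = 0.00592) and -1.56 with pimasertib (SE 0.23, adjusted p = 0.00134). PALB2 bridges BRCA1 and BRCA2. Its levels were 18.8 and 16.0 CPM with palbociclib, 16.3 and 16.1 CPM with pimasertib, and 26.4 and 18.1 CPM with DMSO. The palbociclib range touched the DMSO range, and the log2 fold changes of -0.36 (95% interval -0.90 to 0.18) and -0.46 (-1.002 to 0.08) did not pass.

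RAD51B, RAD51C, RAD51D, XRCC2 and XRCC3, related proteins that assist strand exchange, spanned a wide range of values. XRCC2 showed the largest fall of any member with pimasertib. Its levels were 15.5 and 10.8 CPM with palbociclib, 9.85 and 11.3 CPM with pimasertib, and 36.3 and 41.3 CPM with DMSO. The log2 fold change was -1.57 with palbociclib (SE 0.24, adjusted p = 0.00574) and -1.88 with pimasertib (SE 0.25, adjusted p = 0.000635). XRCC3 changed by -1.29 with palbociclib (SE 0.24, adjusted p = 0.0136) and -0.94 with pimasertib (SE 0.23, adjusted p = 0.0169). XRCC3 had 16.6 and 22.1 CPM with palbociclib, 21.0 and 28.7 CPM with pimasertib, and 49.3 and 45.9 CPM with DMSO, without overlap. RAD51C passed with pimasertib at -1.10 (SE 0.25, adjusted p = 0.0107) and not with palbociclib, at -0.84 (95% interval -1.39 to -0.30). RAD51D and RAD51B did not pass with either drug. RAD51D gave log2 fold changes of -0.09 with palbociclib and -0.01 with pimasertib, and RAD51B gave 0.48 and 0.45, the highest of any member with either drug.

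RAD54L is a motor protein that helps the broken end invade the intact duplex. It had 8.07 and 7.06 CPM with palbociclib, 11.5 and 11.3 CPM with pimasertib, and 29.5 and 24.2 CPM with DMSO. The groups did not overlap, and the log2 fold change was -1.83 with palbociclib (SE 0.24, adjusted p = 0.00268) and -1.23 with pimasertib (SE 0.23, adjusted p = 0.00442). RAD51AP1, which stimulates strand pairing, had 3.67 and 4.76 CPM with palbociclib, 8.36 and 6.14 CPM with pimasertib, and 13.4 and 15.6 CPM with DMSO, a log2 fold change of -1.77 with palbociclib (SE 0.30, adjusted p = 0.00865) and -0.996 with pimasertib (SE 0.29, adjusted p = 0.0313). RAD54B, the second most lowly expressed member in DMSO by FPKM, gave -1.19 and -1.12, and with 1.81 to 5.28 CPM in the 6 libraries it did not pass. RAD52, which anneals single strands, had 13.7 and 18.1 CPM with palbociclib, 13.5 and 22.1 CPM with pimasertib, and 14.6 and 19.5 CPM with DMSO, so the groups overlapped throughout. Several pimasertib calls among the recombination genes depended on 1 library. Without pimasertib replicate 2 the adjusted p was 0.102 for BRCA1, 0.0780 for BARD1, 0.112 for RAD51C and 0.0531 for RAD54L, without replicate 1 it was 0.123 for XRCC3, and RAD51AP1 failed in 4 of the 6 fits that left out a library, at up to 0.230.

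**Figure D2:**
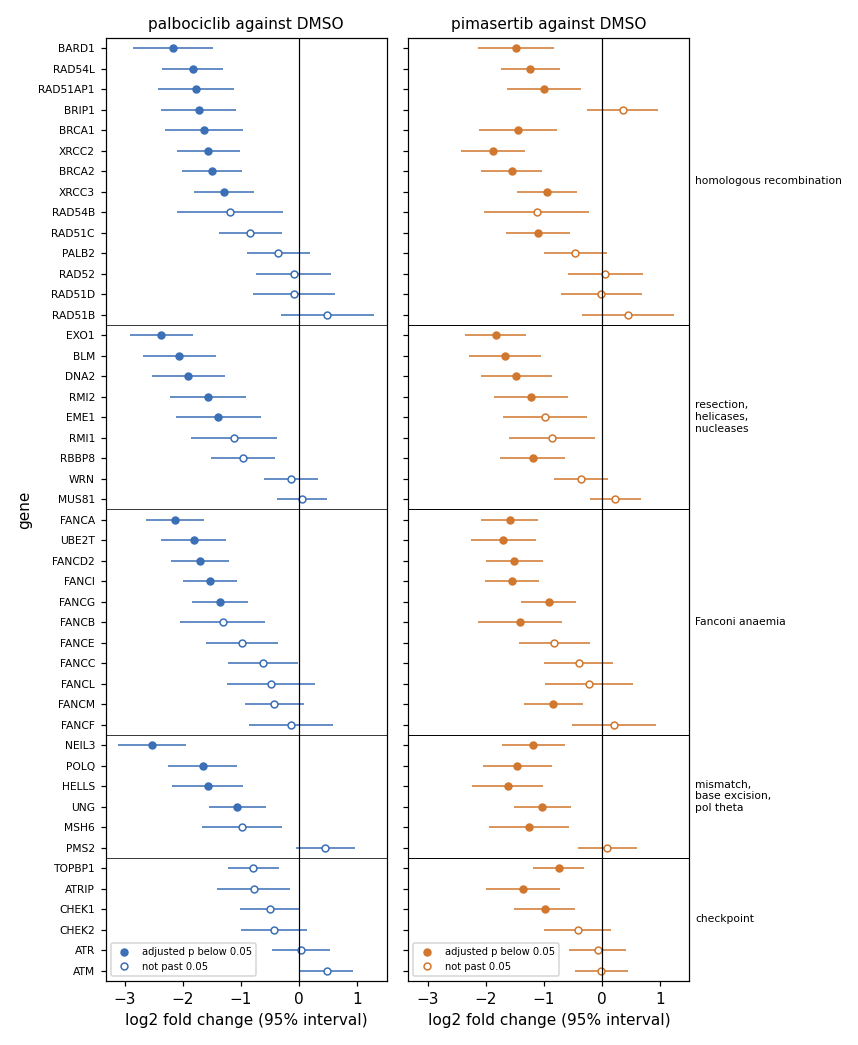
Log2 fold change of each gene against DMSO with its 95% interval, for palbociclib on the left and pimasertib on the right, where filled points passed an adjusted p of 0.05. Filled points lie to the left of 0 in both panels, 22 for palbociclib and 28 for pimasertib.

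BRIP1, the helicase that binds the BRCT repeats of BRCA1, was the member on which the drugs differed most. It lies on chromosome 17 from 59758627 to 59940882 on GRCh37. It had 6.45 and 5.32 CPM with palbociclib, 28.0 and 21.8 CPM with pimasertib, and 23.9 and 15.1 CPM with DMSO. The palbociclib libraries were far below all the others, while the pimasertib range overlapped the DMSO range. The log2 fold change was -1.73 with palbociclib (SE 0.29, adjusted p = 0.00852) and 0.35 with pimasertib (SE 0.27, adjusted p = 0.376, 95% interval -0.25 to 0.96). Palbociclib directly against pimasertib gave -2.08 (SE 0.29, adjusted p = 0.00139), a 4.24-fold lower level, and this passed whichever library was left out, with an adjusted p of at most 0.0239.

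Of the 9 genes of end resection and of helicases and nucleases, 5 fell with palbociclib and 5 with pimasertib, with medians of -1.39 and -1.19. The shares of all tested genes that fell were 2.44% and 11.7%. EXO1, the exonuclease of long-range resection and mismatch repair, lies on chromosome 1 from 242011269 to 242058450 on GRCh37. It had 9.46 and 8.18 CPM with palbociclib, 13.8 and 11.9 CPM with pimasertib, and 52.7 and 38.7 CPM with DMSO. Every palbociclib library was below every pimasertib library, and these below every DMSO library. The log2 fold change was -2.38 with palbociclib (SE 0.25, adjusted p = 0.00151), 5.19-fold lower, and -1.83 with pimasertib (SE 0.24, adjusted p = 0.000604), 3.55-fold lower. DNA2, the nuclease-helicase that resects ends in parallel with EXO1, had 3.52 and 4.93 CPM with palbociclib, 5.88 and 5.63 CPM with pimasertib, and 16.1 and 15.8 CPM with DMSO. It fell by 1.91 on the log2 scale with palbociclib (SE 0.28, adjusted p = 0.00470) and by 1.47 with pimasertib (SE 0.28, adjusted p = 0.00465). RBBP8 encodes CtIP, which starts resection together with the MRE11 complex. Its levels were 30.2 and 22.7 CPM with palbociclib, 24.9 and 20.1 CPM with pimasertib, and 60.4 and 42.5 CPM with DMSO, without overlap, and it passed with pimasertib (-1.19, SE 0.25, adjusted p = 0.00762) but not with palbociclib (-0.96, 95% interval -1.51 to -0.41).

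BLM is the RecQ helicase that dissolves double Holliday junctions with TOP3A, RMI1 and RMI2. It had 6.31 and 5.60 CPM with palbociclib, 8.70 and 6.92 CPM with pimasertib, and 29.7 and 19.9 CPM with DMSO. No drug library reached the DMSO range, and the log2 fold change was -2.06 with palbociclib (SE 0.28, adjusted p = 0.00319) and -1.66 with pimasertib (SE 0.28, adjusted p = 0.00244). WRN, another RecQ helicase, had 20.0 and 22.3 CPM with palbociclib, 19.02 and 17.3 CPM with pimasertib, and 23.1 and 23.6 CPM with DMSO. Its drug libraries were all lower, yet the log2 fold changes of -0.14 (95% interval -0.60 to 0.32) and -0.36 (-0.82 to 0.10) did not pass. RMI2 fell with both drugs, to 3.89 and 3.64 CPM with palbociclib and 4.96 and 4.59 CPM with pimasertib, against 12.2 and 10.1 CPM with DMSO, at log2 fold changes of -1.57 (SE 0.30, adjusted p = 0.0159) and -1.22 (SE 0.29, adjusted p = 0.0139). RMI1 gave -1.13 and -0.86 and passed with neither.

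EME1 and MUS81 together form a structure-specific endonuclease that cuts recombination intermediates. EME1 had 2.71 and 4.09 CPM with palbociclib, 4.09 and 4.98 CPM with pimasertib, and 8.75 and 9.20 CPM with DMSO, without overlap with DMSO. Its log2 fold change of -1.39 with palbociclib (SE 0.33, adjusted p = 0.0494) was just past the threshold and was lost in all 6 fits that left out a library, at 0.0599 to 0.161. With pimasertib it was -0.98 (SE 0.33, adjusted p = 0.0534). MUS81, the catalytic subunit, had 27.5 and 28.7 CPM with palbociclib, 29.9 and 34.0 CPM with pimasertib, and 26.9 and 27.5 CPM with DMSO, and its log2 fold changes were 0.05 (95% interval -0.39 to 0.48) and 0.23 (-0.20 to 0.67). Among these genes, RMI2 with palbociclib was lost without DMSO replicate 1 (adjusted p = 0.0812) and without palbociclib replicate 2 (0.0766). With pimasertib, DNA2 and RBBP8 were lost without pimasertib replicate 2 (0.0593 and 0.0949), and RMI2 without either pimasertib library (0.0716 and 0.110) or without DMSO replicate 1 (0.105).

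**Figure D3:**
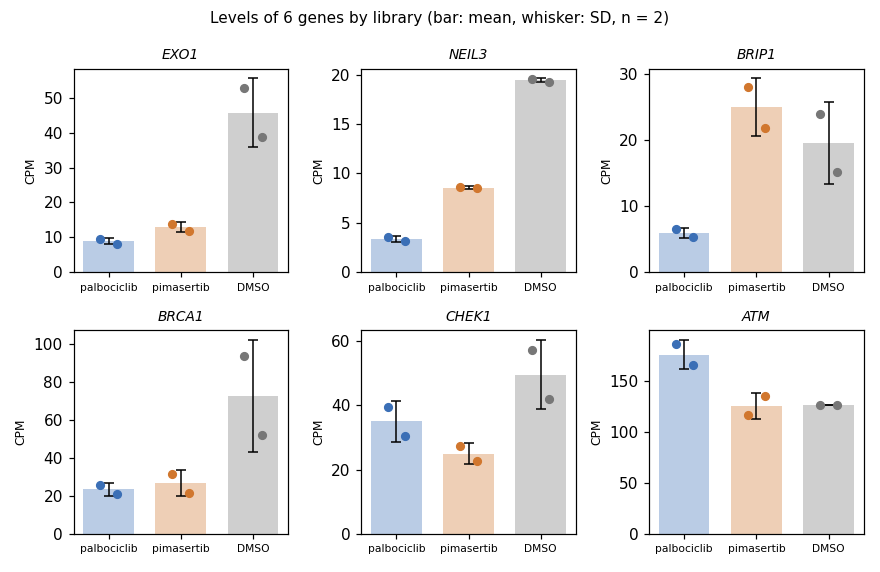
CPM of 6 genes in each library (points), with bars for the group mean and whiskers for its SD (n = 2 per group), in the order palbociclib, pimasertib, DMSO. EXO1, NEIL3 and BRCA1 are lower with both drugs, BRIP1 is lowest with palbociclib at 6.45 and 5.32 CPM, and the palbociclib libraries are the highest for ATM at 186 and 165 CPM.

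Of the 11 Fanconi anaemia genes, 5 fell with palbociclib and 7 with pimasertib, with medians of -1.32 and -0.92. Among all tested genes 2.44% fell with palbociclib and 11.7% with pimasertib. FANCD2 and FANCI are the pair on which the core complex acts. FANCD2 had 21.5 and 17.6 CPM with palbociclib, 24.0 and 20.9 CPM with pimasertib, and 71.5 and 55.9 CPM with DMSO. FANCI had 33.4 and 33.5 CPM with palbociclib, 36.0 and 29.9 CPM with pimasertib, and 107 and 86.5 CPM with DMSO. For both genes all drug libraries lay far below the lower DMSO library. FANCD2 fell by 1.71 with palbociclib on the log2 scale (SE 0.22, adjusted p = 0.00271) and by 1.51 with pimasertib (SE 0.22, adjusted p = 0.00116). FANCI fell by 1.53 (SE 0.21, adjusted p = 0.00319) and by 1.55 (SE 0.21, adjusted p = 0.000747). UBE2T, the enzyme that hands ubiquitin to them, had 5.79 and 5.21 CPM with palbociclib, 6.11 and 5.82 CPM with pimasertib, and 19.8 and 18.9 CPM with DMSO. Its log2 fold change was -1.81 with palbociclib (SE 0.25, adjusted p = 0.00324) and -1.70 with pimasertib (SE 0.25, adjusted p = 0.00120).

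The core complex genes spanned a wide range of values. FANCA, a core subunit, had 12.7 and 9.80 CPM with palbociclib, 15.8 and 17.1 CPM with pimasertib, and 46.6 and 52.6 CPM with DMSO. Its log2 fold change was -2.14 with palbociclib (SE 0.23, adjusted p = 0.00161) and -1.59 with pimasertib (SE 0.22, adjusted p = 0.000842). FANCG, which binds FANCA, had 12.5 and 15.01 CPM with palbociclib, 20.2 and 17.5 CPM with pimasertib, and 34.6 and 36.6 CPM with DMSO. It fell by 1.37 on the log2 scale (SE 0.22, adjusted p = 0.00626) and by 0.92 (SE 0.21, adjusted p = 0.0127). FANCB passed with pimasertib alone, at -1.41 (SE 0.33, adjusted p = 0.0127) and, with palbociclib, -1.32 (SE 0.33, adjusted p = 0.0560), and these values do not show a difference between the drugs. FANCM, the translocase that anchors the complex to DNA, also passed with pimasertib, at -0.84 (SE 0.23, adjusted p = 0.0263), and gave -0.43 with palbociclib (95% interval -0.94 to 0.08). FANCE, FANCC, FANCL (the ubiquitin ligase subunit) and FANCF passed with neither drug, with log2 fold changes of -0.98, -0.63, -0.49 and -0.14 with palbociclib and -0.82, -0.40, -0.23 and 0.21 with pimasertib. FANCF levels were 5.94 and 7.0 CPM with palbociclib, 10.4 and 6.08 CPM with pimasertib, and 7.66 and 6.63 CPM with DMSO, so its groups overlapped. With pimasertib, FANCG was lost without pimasertib replicate 1 (adjusted p = 0.0509) or 2 (0.117), FANCB without either of these or DMSO replicate 1 (at up to 0.114), and FANCM in 4 of 6 such fits (at up to 0.136).

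The genes of mismatch repair, base excision repair and polymerase theta end joining held the member with the largest fall of all. With HELLS, which belongs to none of these pathways but was counted with them, they number 6. Of these, 4 fell with palbociclib and 5 with pimasertib, with medians of -1.32 and -1.22, where 2.44% and 11.7% of all tested genes fell. NEIL3, a glycosylase that removes oxidised bases and unhooks some crosslinks, lies on chromosome 4 from 178230990 to 178284097 on GRCh37. It had 3.59 and 3.14 CPM with palbociclib, 8.64 and 8.47 CPM with pimasertib, and 19.6 and 19.3 CPM with DMSO. The 3 groups were separate, in that order. Its log2 fold change was -2.53 with palbociclib (SE 0.26, adjusted p = 0.00151), 5.78-fold lower, and -1.18 with pimasertib (SE 0.24, adjusted p = 0.00727), 2.27-fold lower. The pimasertib call was lost without pimasertib replicate 1 (0.0530) or 2 (0.0726). Palbociclib directly against pimasertib gave -1.35 (SE 0.26, adjusted p = 0.00902), which was lost without pimasertib replicate 1 (0.0629) or 2 (0.0672).

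POLQ, the polymerase of theta-mediated end joining, had 33.8 and 23.0 CPM with palbociclib, 33.5 and 31.9 CPM with pimasertib, and 109 and 70.5 CPM with DMSO. It fell by 1.66 on the log2 scale with palbociclib (SE 0.27, adjusted p = 0.00687) and by 1.46 with pimasertib (SE 0.27, adjusted p = 0.00389). HELLS is a chromatin remodelling helicase known for its part in DNA methylation. It had 18.0 and 11.8 CPM with palbociclib, 17.2 and 11.5 CPM with pimasertib, and 45.4 and 43.4 CPM with DMSO, at log2 fold changes of -1.58 (SE 0.27, adjusted p = 0.0102) and -1.62 (SE 0.27, adjusted p = 0.00254). UNG had 27.0 and 31.1 CPM with palbociclib, 33.5 and 26.1 CPM with pimasertib, and 68.3 and 53.3 CPM with DMSO. UNG fell by 1.06 on the log2 scale with palbociclib (SE 0.22, adjusted p = 0.0274) and by 1.03 with pimasertib (SE 0.22, adjusted p = 0.00911). For POLQ, HELLS and UNG the drug groups overlapped each other and stayed below DMSO.

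MSH6 passed with pimasertib, at -1.25 (SE 0.31, adjusted p = 0.0165), and with palbociclib gave -0.99 (95% interval -1.67 to -0.30, adjusted p = 0.120). It had 133 and 88.8 CPM with palbociclib, 104 and 80.3 CPM with pimasertib, and 279 and 159 CPM with DMSO, where the DMSO libraries were the most spread. PMS2, which nicks the strand to be repaired, passed with neither drug, at 0.45 and 0.09. Reads of PMS2 and its near-identical pseudogenes may have been split in counting, so its values are uncertain. Among these 6 genes UNG with palbociclib passed in only 1 of the 6 fits that left out a library (adjusted p at up to 0.114). With pimasertib, POLQ and UNG were lost without pimasertib replicate 2 (0.0582 and 0.103), and MSH6 without either pimasertib library or DMSO replicate 1 (at up to 0.167).

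Of the 6 checkpoint genes, 0 passed with palbociclib and 3 fell with pimasertib, and their medians, -0.47 and -0.58, were the smallest in size of the 5 roles. At an unadjusted p below 0.05 with palbociclib, 2 were lower and 1 was higher, and DESeq2 called 1, TOPBP1, lower. With the replicate number as a block in the edgeR fit, 3 were lower and 1, ATM, was higher with palbociclib. More of all tested genes passed with the block as well. Without it 2.44% of all tested genes were lower with palbociclib and 11.7% with pimasertib, so 0 of 6 with palbociclib is near that share. CHEK1, the kinase that ATR activates, had 39.5 and 30.4 CPM with palbociclib, 27.4 and 22.6 CPM with pimasertib, and 57.1 and 41.9 CPM with DMSO. All drug libraries were below DMSO, and the pimasertib libraries below palbociclib. Its log2 fold change was -0.50 with palbociclib (95% interval -1.02 to 0.02, adjusted p = 0.296) and -0.99 with pimasertib (SE 0.24, adjusted p = 0.0148). ATRIP, which brings ATR to single-stranded DNA, had 23.9 and 14.3 CPM with palbociclib, 12.4 and 13.3 CPM with pimasertib, and 38.5 and 27.1 CPM with DMSO. It gave -0.78 with palbociclib (SE 0.28, adjusted p = 0.171) and -1.35 with pimasertib (SE 0.29, adjusted p = 0.00825). TOPBP1 had 82.1 and 72.9 CPM with palbociclib, 83.4 and 76.7 CPM with pimasertib, and 141 and 128 CPM with DMSO. Its log2 fold changes were nearly alike, -0.79 with palbociclib (SE 0.20, adjusted p = 0.0593) and -0.74 with pimasertib (SE 0.20, adjusted p = 0.0234), and fell on opposite sides of the threshold.

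The apical kinases stood apart from this. ATR had 152 and 116 CPM with palbociclib, 127 and 122 CPM with pimasertib, and 144 and 118 CPM with DMSO, groups that overlapped. Its log2 fold changes were 0.03 (95% interval -0.46 to 0.53) and -0.07 (-0.57 to 0.42). ATM had 186 and 165 CPM with palbociclib, 117 and 135 CPM with pimasertib, and 127 and 126 CPM with DMSO. Both palbociclib libraries were above all others, but the log2 fold change of 0.47 (SE 0.21, adjusted p = 0.263) did not pass. With pimasertib it was -0.01. CHEK2, the kinase below ATM, had 8.73 and 8.90 CPM with palbociclib, 8.18 and 9.57 CPM with pimasertib, and 13.1 and 10.7 CPM with DMSO, and its log2 fold changes of -0.43 and -0.42 did not pass. The pimasertib calls of CHEK1, ATRIP and TOPBP1 were each lost without pimasertib replicate 1 (adjusted p of 0.0537, 0.0701 and 0.0876) and without replicate 2 (0.138, 0.0759 and 0.162), and CHEK1 and TOPBP1 also without DMSO replicate 1 (0.0937 and 0.121).

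Palbociclib set directly against pimasertib separated 2 of the 46 members at an adjusted p below 0.05, BRIP1 and NEIL3, both lower with palbociclib, and 0 were higher. The background in this comparison was 5.07% of all tested genes lower and 4.31% higher, so the share of members called was close to the background share for lower genes. The median log2 fold change of the members was -0.14. At an unadjusted p below 0.05, 7 members were lower and 1, ATM, was higher, where 13.1% of all tested genes were lower and 11.6% higher, so these counts are no result about the members. DESeq2 called 2 members lower and 0 higher, against 6.4% and 5.55% of all tested genes. Of the 6 checkpoint genes none passed without the replicate block, and 2 were higher with it. Far more of all tested genes passed with the block as well, so these 2 are no result about the checkpoint genes. ATRIP gave 0.57 (95% interval -0.07 to 1.20), CHEK1 0.48 (-0.04 to 1.01) and ATM 0.48 (0.02 to 0.94), while ATR, CHEK2 and TOPBP1 lay near 0, at 0.10, -0.01 and -0.05. Several recombination and Fanconi genes had values near 0. BRCA2 gave 0.06 (-0.46 to 0.58), FANCI 0.02 (-0.44 to 0.48) and FANCD2 -0.20 (-0.69 to 0.29). These intervals leave room for a difference in either direction, and do not show that the drugs acted alike.

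**Figure D4:**
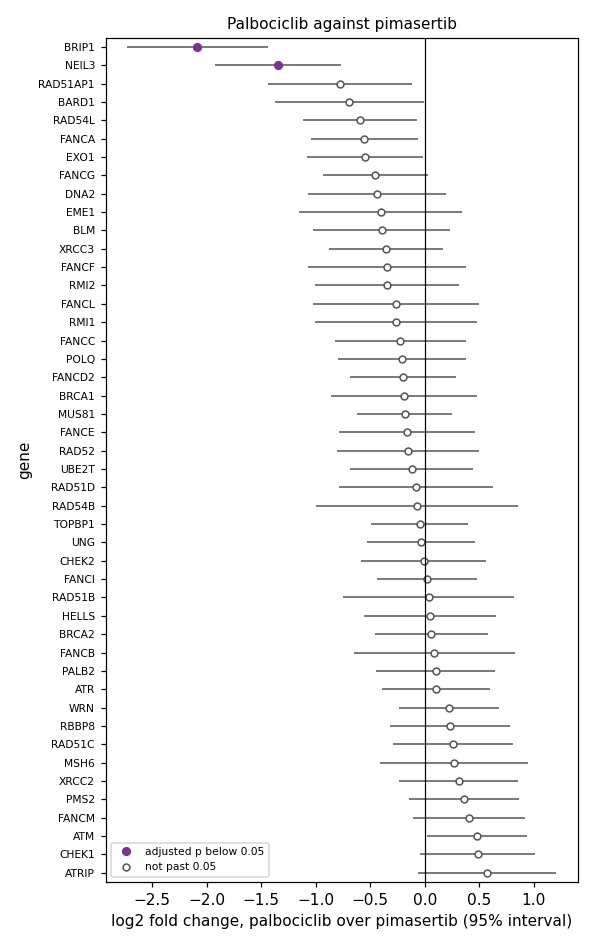
Log2 fold change of palbociclib over pimasertib for each of the 46 genes with its 95% interval, ordered from lowest to highest. BRIP1 at -2.08 and NEIL3 at -1.35 are the filled points that passed an adjusted p of 0.05, and ATRIP at 0.57 is the highest.

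Of 76 other tested genes of DNA repair and damage signalling, 10 were lower and 0 higher with palbociclib, and their log2 fold changes had a median of -0.39. With pimasertib 23 were lower and 2 higher, with a median of -0.49. Over all tested genes 2.44% were lower and 1.11% higher with palbociclib, and 11.7% and 11.1% with pimasertib. Of 12 checkpoint clamp, mediator and kinase genes, with phosphatases of the cell cycle among them, 4 were lower with palbociclib and 6 with pimasertib. CLSPN, the adaptor through which ATR activates CHEK1, fell by 2.43 on the log2 scale with palbociclib (adjusted p = 0.00394) and by 2.32 with pimasertib (adjusted p = 0.00130). CDC25A, the phosphatase that CHEK1 targets for destruction, fell by 1.75 (adjusted p = 0.00398) and by 2.59 (adjusted p = 0.000158). Among 14 crosslink and recombination partners, 3 fell with palbociclib and 7 with pimasertib, including USP1, which removes ubiquitin from FANCD2, at -1.53 and -1.39 (adjusted p = 0.00605 and 0.00288).

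Other repair pathways are given by their counts. Over all tested genes 2.44% were lower and 1.11% higher with palbociclib, and 11.7% and 11.1% with pimasertib. With palbociclib the shares were 9.58% and 8.4% at an unadjusted p below 0.05, and 3.55% and 2.39% with DESeq2. None of 7 tested genes of non-homologous end joining passed with either drug in edgeR's test. None did so at an unadjusted p below 0.05, and DESeq2 called none. With the replicate number as a block in the edgeR fit, 2 of the 7 were lower with pimasertib and 0 with palbociclib. The medians of the 7 were -0.06 with palbociclib and -0.34 with pimasertib. With so few genes, these counts are no result about end joining. None of 13 nucleotide excision repair genes passed with palbociclib, where at an unadjusted p below 0.05 there were 3 lower and 1 higher and DESeq2 called 2 lower. With pimasertib 2 of the 13 were lower and 1 higher, ERCC6, which couples this repair to transcription, at 1.33 (adjusted p = 0.00292). These counts are near the shares over all tested genes, so they are no result about the 13 genes. The replication ligase LIG1 was the 1 gene lower with palbociclib among 15 genes of base excision and single-strand break repair (-1.46, adjusted p = 0.00346), and with pimasertib 5 of the 15 were lower. Of 13 break sensing genes, 2 were lower and 0 higher with palbociclib, and 3 were lower and 1 higher with pimasertib. The histone gene H2AFX and the mediator MDC1 fell with both drugs, H2AFX by 1.73 with palbociclib (adjusted p = 0.00226) and by 1.25 with pimasertib (adjusted p = 0.00246). With pimasertib RNF168 was the third lower gene, at -1.26 (adjusted p = 0.0137), and BRE was the higher one, at 0.80 (adjusted p = 0.0304).

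**Figure D5:**
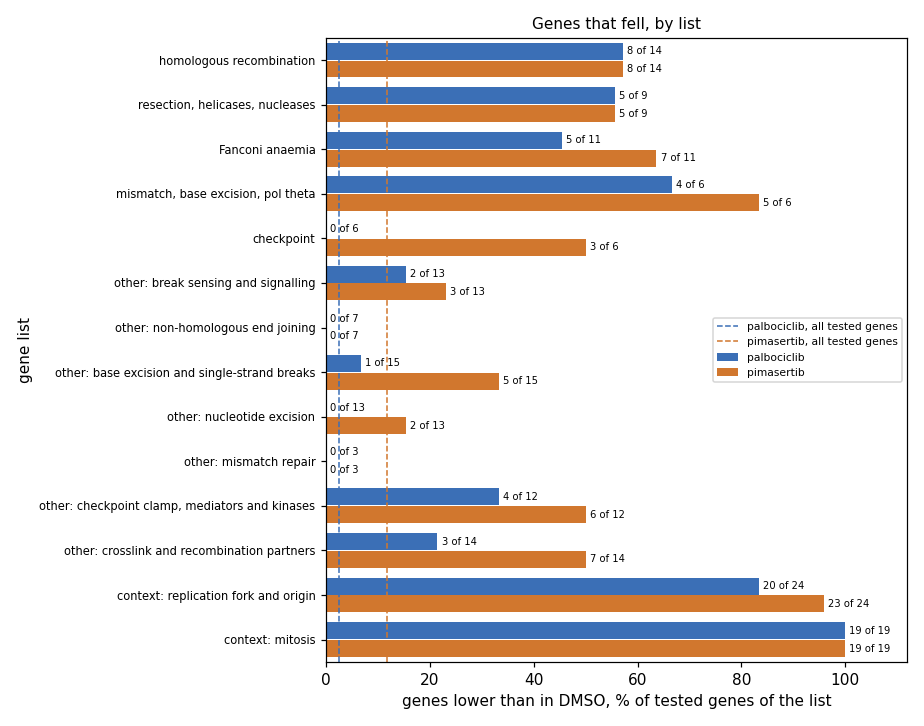
Share of the tested genes in each list that were lower than with DMSO, in %, with palbociclib above pimasertib in each pair and the count beside each bar. Dashed lines give the share over all tested genes, 2.44% for palbociclib and 11.7% for pimasertib. End joining and the other mismatch repair genes have bars of 0 for both drugs.

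Genes of DNA replication and mitosis moved in the same libraries. As a background for the counts here, 2.44% of all tested genes were lower with palbociclib and 11.7% with pimasertib. Of 24 genes of the replication fork and origin, 20 fell with palbociclib and 23 with pimasertib, with medians of -1.47 and -1.58. All 19 mitotic genes fell with each drug, with medians of -1.73 and -1.22. These medians were larger than those of the repair members in size, and the part of cell cycle position in the members' values was not tested.

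The sources used here do not give the strand setting of the counting. Whether reads in bases shared with a gene on the other strand were told apart is thus unknown. By whole gene span on GRCh37, introns included, 24 members overlap a gene on the opposite strand. For 12 of them the partner held at least 10% of the member's counts. EME1 overlaps LRRC59, with 54.4 times its counts, RAD54L overlaps LRRC41 with 8.53 times, and FANCI overlaps POLG with 2.14 times. LRRC41 and POLG passed with neither drug, at log2 fold changes of 0.21 and -0.22 with palbociclib, unlike RAD54L and FANCI. RAD52 overlaps ERC1 with 8.32 times its counts, and ERC1 passed with neither drug, at -0.03 with palbociclib and 0.06 with pimasertib, as RAD52 did not. LRRC59 passed with pimasertib at -0.999 (adjusted p = 0.0330), a value close to that of EME1. With palbociclib LRRC59 gave -0.16 and did not pass (adjusted p = 0.828), where EME1 gave -1.39. MUS81 overlaps CFL1 with 18.5 times its counts and EFEMP2 with 1.64 times, and EFEMP2 rose with pimasertib by 1.43 on the log2 scale (adjusted p = 0.00355). CHEK1 shares its strand and its region with STT3A, which had 9.33 times its counts and gave -0.63 with palbociclib and -0.14 with pimasertib, passing with neither.

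The authors' deposited table called 24 members with palbociclib, all lower, of which 21 were among the 22 called here. MSH6, RBBP8 and TOPBP1 were called in the authors' table alone, and EME1 here alone. With pimasertib the authors' deposited table called 28 members, the same 28 as here and all lower.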

How the data were processed

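The members and gene lists were chosen with earlier results of these data known. Per the labels' protocols, RNA was purified on columns and cDNA was primed with random hexamers. DESeq2, HTSeq 0.6.1, STAR 2.5 and CASAVA, and the builds hg19 and GRCh37, are named in the submitters' processing notes, with no settings. For each drug the authors deposited a table with the raw counts of the drug and DMSO libraries, FPKM values, and the results of a comparison with DMSO. The log2 fold changes and p-values in that comparison are the authors' own, per the file headers, and only their calls were used. The tables held 23914 and 24931 genes, 22559 of them in both, and a gene missing from 1 table was counted as 0 there. FPKM equalled the count divided by gene length and by the library's total count in every library.

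The test was edgeR's quasi-likelihood test (edgeR 4.0.16, R 4.3.3) with filterByExpr (minimum count 10, minimum total 15), TMM scaling, glmQLFit (robust) with 3 groups over all 6 libraries, and two-sided tests with glmQLFTest. The p-values were adjusted by Benjamini-Hochberg over 14839 genes, with 0.05 as the threshold. The SE is the absolute log2 fold change over the square root of F, and intervals are 95%. The fit was checked on simulated counts with known changes. The floor of 3 counts covers counting error alone, because reads copied by PCR are not independent. The alternatives were other scalings, no filter or a minimum of 30 counts, DESeq2 1.42.0, only the 4 libraries compared, each library left out, and the replicate number as a block. Named in full are the members past the threshold with the 6 largest changes per drug, the largest and smallest of the others per role, members that differ between the drugs, and BRCA1, BRCA2, CHEK1, CHEK2, ATM, ATR, FANCD2 and FANCI. The other members are accounted for with fewer values, and from other lists up to 3 genes per direction are named. Gene coordinates are those of the deposited tables (GRCh37), and promoters are RefSeq's on GRCh38.p14.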

Additional observations from a re-analysis of the deposited data

Results flagged for a closer look

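BRIP1, the BRCA1-associated helicase, gave a log2 fold change of -2.08 for palbociclib against pimasertib (edgeR, adjusted p = 0.00139), and the test of the difference between the drugs itself passed. Both palbociclib libraries, at 6.45 and 5.32 CPM, lay below both pimasertib libraries, at 28.0 and 21.8 CPM. NEIL3, the base excision glycosylase, was the other member whose difference between the drugs passed, at -1.35 (adjusted p = 0.00902). Its palbociclib libraries stood at 3.59 and 3.14 CPM and its pimasertib libraries at 8.64 and 8.47 CPM. The NEIL3 call did not hold when either pimasertib library was left out. The share of members called was close to the 5.07% of all tested genes that were lower in this comparison. No other member differed between the drugs by this test, and groups of 2 libraries are too small to single out 1 library as far from the rest.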

How the results depend on the processing

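No called member changed direction under any alternative. Over the other settings, the 22 palbociclib calls kept their side of the threshold in 268 fits and lost it in 18, the 28 pimasertib calls in 326 and 38, and the 2 calls between the drugs in 24 and 2. Of the called members, 19 with palbociclib, 9 with pimasertib and 1 between the drugs passed whichever library was left out. Leaving out 1 library gave 19 to 24 members called with palbociclib, 10 to 31 with pimasertib and 1 to 2 between the drugs. Their medians then ranged from -1.28 to -1.08, from -1.24 to -0.85 and from -0.18 to 0.05, with the sign of the last turned without pimasertib replicate 1 (0.048). All genes called ranged from 334 to 762, from 1055 to 4082 and from 456 to 1941.

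The count over all genes with palbociclib, 526, was 1097 without a filter on low counts, 882 with DESeq2 and 325 with only the 4 libraries compared. Between the drugs, 1393 became 2256 without a filter. Of the palbociclib calls 68.8% were lower, against 52.8% without a filter, 80.0% with 4 libraries and 56.6% with the replicate block. The median of all genes with pimasertib was 0.11 without a filter, and that of the members -0.97. The cause of these shifts was not tested.

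The replicate numbers pair the samples only by number. Deviations from the group means correlated at 0.397, 0.351 and 0.345 over 14839 genes, and with 2 replicates the numbers were not taken as pairs. With the replicate block, 2953 genes were called with palbociclib, 6551 with pimasertib and 4702 between the drugs, and 33, 32 and 9 members (32 lower and 1 higher, 32 lower and 0 higher, and 7 lower and 2 higher). For the checkpoint genes with palbociclib, of which 0 passed without it, the block gave 3 lower and 1 higher, and for end joining genes with pimasertib 2 of 7 lower. Groups of 2 libraries limit how small a change can pass.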

Other observations

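Some partners that act as a complex differed between treatments in the ratio of their transcript levels. On the authors' FPKM scale, EME1 over MUS81 stood at 0.143 and 0.207 with palbociclib and 0.199 and 0.213 with pimasertib, against 0.473 and 0.487 with DMSO. ATRIP over ATR stood at 0.476 and 0.375 with palbociclib and 0.295 and 0.330 with pimasertib, against 0.811 and 0.692 with DMSO. In both pairs the regulatory partner was lower relative to the catalytic one in every drug library. BARD1 over BRCA1 was 0.266 and 0.256 with palbociclib, 0.388 and 0.342 with pimasertib, and 0.315 and 0.493 with DMSO. RMI2 over RMI1 was 1.07 and 0.676 with palbociclib, 0.697 and 1.23 with pimasertib, and 1.14 and 1.11 with DMSO. For these, the palbociclib libraries were below DMSO and the pimasertib range overlapped the DMSO range. FANCD2 over FANCI was 0.585 and 0.478 with palbociclib, 0.605 and 0.634 with pimasertib, and 0.610 and 0.588 with DMSO, so that the drug ranges reached the DMSO range or lay near it. BRIP1 over BRCA1 was 0.292 and 0.299 with palbociclib, 1.04 and 1.18 with pimasertib, and 0.300 and 0.341 with DMSO, so the pimasertib libraries alone stood apart. EME1 and MUS81 both overlap far more abundant genes on the opposite strand, and the strand setting of the counting is unknown, so their ratio is uncertain. ATRIP overlaps TREX1 on the same strand, which had 0.58 times its counts, so the ratio over ATR is uncertain too. None of these ratios was tested.

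Replicate 2 was lower than replicate 1 for 28 of the 46 members with palbociclib, 36 with pimasertib and 36 with DMSO. The medians of the members' log2 ratio were -0.18 with palbociclib, -0.18 with pimasertib and -0.24 with DMSO, beside 0.02, -0.01 and -0.03 over all tested genes. Others, such as RAD52, EME1 and MUS81, were higher in replicate 2 with every treatment. The share of counts from 13 mitochondrially encoded genes was higher in replicate 2 of each treatment, at 4.57% and 6.31% with palbociclib, 4.25% and 8.76% with pimasertib, and 3.21% and 5.67% with DMSO in replicates 1 and 2. Its part in the members' values was not tested.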
